A study of Mus musculus with 4 samples.

Results

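Hcfc1, Bap1, Asxl1, Asxl2, Foxk1, Foxk2, Sin3a, Kdm1b, Mbd5 and Mbd6 encode proteins of the HCF-1, PR-DUB and SIN3 complexes, to which O-GlcNAc transferase (OGT) is known to bind. They were taken by symbol as a list of known partners. All 10 symbols were found among the 25239 gene symbols of each count table, and all 10 passed the filter on low counts that left 14525 genes for testing. Gene expression was measured by sequencing polyadenylated RNA from mouse embryonic stem cells (mESC), in 4 libraries. The Ogt iKO group held 2 libraries from Ogt fl/fl cells kept with 4-OHT for 6 days, and the control group held 2 libraries from Ogt fl/fl cells kept without it. Both groups thus carry the floxed allele, and no cells without it were given 4-OHT for comparison, so the ligand and the loss of Ogt cannot be told apart. The cells grew over mouse embryonic fibroblast feeders in medium with LIF. Viable cells were sorted away from the feeders, by the labels with CD90.2 as the mark of mESC and CD326 as the mark for excluding feeders, and selection of YFP+ cells is described for the 4-OHT cultures alone. The recombinase, and whether the line is 1 clone, are not given in the sources used here.

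The deposited counts summed to between 14668489 and 16504204 per library. Ogt, the deleted gene, stood at 25.6 and 25.1 CPM (counts scaled to library size) in Ogt iKO and at 191 and 203 CPM in control. All 10 stem cell markers had counts in every library. Their summed levels were 2807 and 3135 CPM in Ogt iKO and 4490 and 4479 CPM in control. Of the 10, 9 were called lower, beside 32.0% of all genes tested. All 15 fibroblast markers had counts too, so none was at 0 after the sort. Their sum was 3088 CPM in Ogt iKO replicate 1 and between 933 and 1130 CPM in the other 3 libraries. Of the 15, 4 were called higher, beside 33.2% of all genes tested. These 4, Tagln, Acta2, Twist1 and Pdgfrb, were above both controls in both Ogt iKO libraries (Tagln 257 and 222 against 44.2 and 34.9 CPM). Col1a1, not called, had 904 and 180 CPM in Ogt iKO replicates 1 and 2 and 294 and 314 CPM in control. Dcn likewise had 45.7 and 10.4 against 31.8 and 39.0 CPM, so the sum mixes unlike patterns. CD90.2 is the product of Thy1, known from fibroblasts among other cells, and CD326 is the product of Epcam, known from stem cells and epithelia, so the roles given in the labels run against this background. Epcam had 280 and 287 CPM in Ogt iKO and 347 and 307 CPM in control, and Thy1 had 25.6 and 8.90 against 15.6 and 15.6. How the gate was set, and its part in the marker sums, was not tested. Without Ogt iKO replicate 1 the 10 partner genes gave the same numbers of calls as with it. The part of the lower stem cell marker level in the changes of the partner genes was not tested, and fewer cells of a type cannot be told apart from less RNA per cell in bulk samples. The labels do not say that replicates came from separate cultures, so the p-values measure the spread between these libraries, which may be technical.

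OGT places N-acetylglucosamine on proteins, and it also cuts the precursor of HCF-1 within a row of repeats, which is how the mature, 2-part HCF-1 protein is made. HCF-1 binds no DNA itself. It is carried to promoters by DNA-binding factors such as THAP11 and ZNF143, and there it gathers histone-modifying enzymes. BAP1 is a deubiquitinase that, with an ASXL protein, removes ubiquitin from histone H2A at sites marked by Polycomb, in the complex called PR-DUB. SIN3A is the scaffold of a histone deacetylase corepressor complex, and it was one of the early proteins found to bring OGT to repressed promoters.

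The bases just before the start sites are shown for the members on which the results turn: Asxl1 and Asxl2, paralogs whose levels changed in opposite directions, Sin3a, with the largest fall, and Hcfc1, whose level was not called. Each run is 250 bases long on the strand of the gene, from the RefSeq promoter table in build GRCm38.p6. Capitals mark a match to a short motif, which is the core of the shared THAP11 and ZNF143 site (ACTACAANT) in Asxl1, an ETS site of the GABPA type (CCGGAAGT) in Asxl2 and a YY1 site (AAGATGGC) in Hcfc1. The start that the table gives for Hcfc1 lies within the outer bounds of the gene, and so does the whole of its run. The run of Sin3a, taken at the more upstream of its 2 starts in the table, held none of these motifs. That start, too, lies within the outer bounds of its gene.
Asxl1, plus strand, chr2:153345580-153345829: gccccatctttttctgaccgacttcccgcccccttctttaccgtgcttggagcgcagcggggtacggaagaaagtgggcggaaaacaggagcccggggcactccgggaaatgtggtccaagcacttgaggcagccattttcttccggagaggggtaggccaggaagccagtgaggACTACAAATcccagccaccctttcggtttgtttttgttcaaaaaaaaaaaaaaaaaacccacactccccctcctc
Asxl2, plus strand, chr12:3426607-3426856: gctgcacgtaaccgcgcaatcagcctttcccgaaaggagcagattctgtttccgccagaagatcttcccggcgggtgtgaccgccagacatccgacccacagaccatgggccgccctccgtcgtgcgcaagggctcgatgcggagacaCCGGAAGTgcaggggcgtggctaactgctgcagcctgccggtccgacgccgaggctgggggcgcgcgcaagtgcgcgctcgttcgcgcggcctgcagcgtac
Sin3a, plus strand, chr9:57071790-57072039: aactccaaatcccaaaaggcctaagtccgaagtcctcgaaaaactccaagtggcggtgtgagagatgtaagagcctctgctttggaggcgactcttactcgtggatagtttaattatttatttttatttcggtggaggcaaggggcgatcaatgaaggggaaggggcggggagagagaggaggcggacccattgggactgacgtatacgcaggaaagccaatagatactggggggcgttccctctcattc
Hcfc1, minus strand, chrX:73966358-73966607: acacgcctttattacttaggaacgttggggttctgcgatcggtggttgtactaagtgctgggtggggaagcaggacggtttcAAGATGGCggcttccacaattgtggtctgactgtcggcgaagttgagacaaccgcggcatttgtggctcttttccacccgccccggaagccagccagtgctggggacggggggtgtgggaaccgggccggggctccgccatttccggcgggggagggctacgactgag

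In the comparison of Ogt iKO with control, Sin3a, Asxl1, Foxk2 and Foxk1 fell, Mbd5 and Asxl2 rose, and Hcfc1, Bap1, Kdm1b and Mbd6 did not pass the threshold. A gene was called at an adjusted p under 0.05 in edgeR's quasi-likelihood test over all genes tested. Thus 6 of the 10 members were called, against 65.3% of all genes tested. The 4 lower members stand beside 32.0% of genes lower, and the 2 higher members beside 33.2% higher. The groups did not overlap for 8 of the 10 members and for 83.2% of all genes. These numbers are near the background, and the members' median log2 fold change of -0.08 lay close to the 0.02 of all genes. Scaling by library totals in place of trimmed means (TMM) turned the 4827 higher and 4651 lower genes into 6116 and 3282. It moved the median of all genes to 0.19 and that of the members to 0.09 (-0.13 with an offset for exon length), so changes are relative to the bulk of genes.

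**Figure D1:**
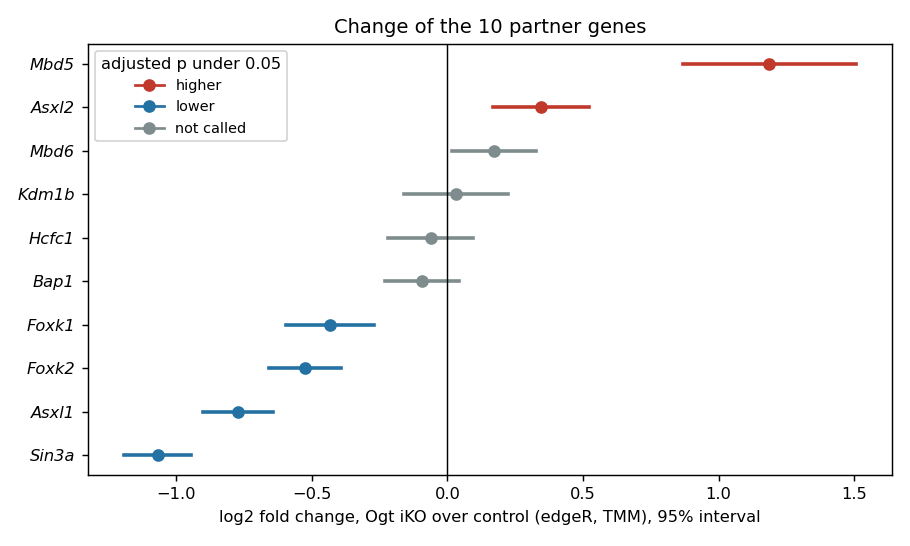
Log2 fold change of each of the 10 partner genes in Ogt iKO over control (x axis), with bars for the 95% interval from the edgeR fit and colours for the call. The intervals of Sin3a, Asxl1, Foxk2 and Foxk1 lie below 0, those of Mbd5 and Asxl2 lie above it, and that of Mbd6 starts at 0.02 although it was not called after adjustment.

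Hcfc1 encodes HCF-1 and lies on chromosome X from 73942792 to 73966995 (GRCm38), on the chromosome that also carries Ogt. It had 625 and 602 CPM in Ogt iKO and 603 and 677 CPM in control. The 2 groups overlapped, and the wider spread was between the controls. The log2 change of Hcfc1 was -0.06 with SE 0.0685 (edgeR adjusted p 0.451), with an interval that runs from 86.0% to 107% of control. Its mRNA level was therefore not shown to differ. A fall to below 86.0% lies outside the interval of the main fit, to which this bound applies. Over 16 alternative settings the log2 change ran from -0.16 to 0.11. Its sign is not fixed, since it was 0.11 with library totals and 0.01 without control replicate 2. Hcfc2, the smaller paralog that lacks the OGT-cut repeats, gave counts of 280 and 214 with 4-OHT and of 162 and 168 without. It rose to 141% of control (log2 change 0.50 with SE 0.143, edgeR adjusted p 0.0142), a call lost with DESeq2 (adjusted p 0.0812), without Ogt iKO replicate 1 (0.0616) and without control replicate 1 (0.0734). Per kb of exon, Hcfc1 still held 96.4% ± 0.329 (SD, n = 2) of the pair in Ogt iKO and 97.5% ± 0.119 (SD, n = 2) in control. The ratio of Hcfc1 to Ogt, both per kb of exon, was 23.5 and 23.1 in the Ogt iKO libraries and 3.03 and 3.21 in the controls, since Ogt fell and Hcfc1 was not called.

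Bap1, at positions 31251352 to 31259930 of chromosome 14, encodes the catalytic subunit of PR-DUB. Its level was 162 and 163 CPM in Ogt iKO and 180 and 167 CPM in control. Both treated libraries lay below both controls, and the group means, 162 and 173 CPM, differed by less than the controls did from each other. The log2 change of Bap1 was -0.09 with SE 0.0601 (edgeR adjusted p 0.200), and its interval ran from 85.2% to 103% of control. With library totals the value was 0.08, so it has no fixed direction either.

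Asxl1 and Asxl2 encode alternative partners that bind BAP1 and are needed for its activity. Asxl1, on chromosome 2 from 153345830 to 153404007, had 191 and 200 CPM in Ogt iKO and 331 and 336 CPM in control. The groups were far apart against a spread of a few CPM, and Asxl1 fell to 58.5% of control (log2 change -0.77 with SE 0.0561, edgeR adjusted p 1.1e-05). Asxl2, on chromosome 12 from 3426857 to 3510811, had 107 and 104 CPM in Ogt iKO and 77.3 and 88.8 CPM in control. It rose to 127% of control (log2 change 0.35 with SE 0.0774, edgeR adjusted p 0.00422), and its treated libraries lay above both controls. This call was lost with an offset for exon length (log2 fold change 0.14, adjusted p 0.109) and in glmTreat's test against a fold of 1.2 (adjusted p 0.103). Asxl2 has 15941 bases of exon in the GENCODE models, against 7444 for Asxl1. Asxl3, the third paralog, is scarce here, with 111 and 140 counts in Ogt iKO and 62 and 80 in control, and it rose by 0.75 on the log2 scale (adjusted p 0.0186, edgeR). It is named after its value was seen.

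The share of Asxl1 in the sum of Asxl1 and Asxl2, per kb of exon, does not depend on how libraries are scaled to each other. It was 79.3% and 80.4% in the Ogt iKO libraries and 90.17% and 89.01% in the controls. The group mean dropped by 9.75 percentage points, where the SD within a group was 0.812 to 0.820. The size depends on the exon lengths used, since the change was -15.2 points on raw counts. The exact two-sided permutation test gave p = 0.333, the smallest that 2 libraries against 2 allow, here and for each of the 5 pairs compared. The sum of the pair fell to 65.7% of control, from 50.0 ± 0.941 to 32.9 ± 0.721 RPKM (CPM per kb of exon; SD, n = 2). Because Bap1 was not called while Asxl1 fell, the ratio of Bap1 to the sum of Asxl1 and Asxl2 was 1.07 and 1.04 in Ogt iKO and 0.777 and 0.702 in control. That ratio was chosen after the values were seen. The ratio of Hcfc1 to Bap1, in contrast, was 2.17 and 2.07 against 1.88 and 2.27, and those groups overlapped.

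**Figure D2:**
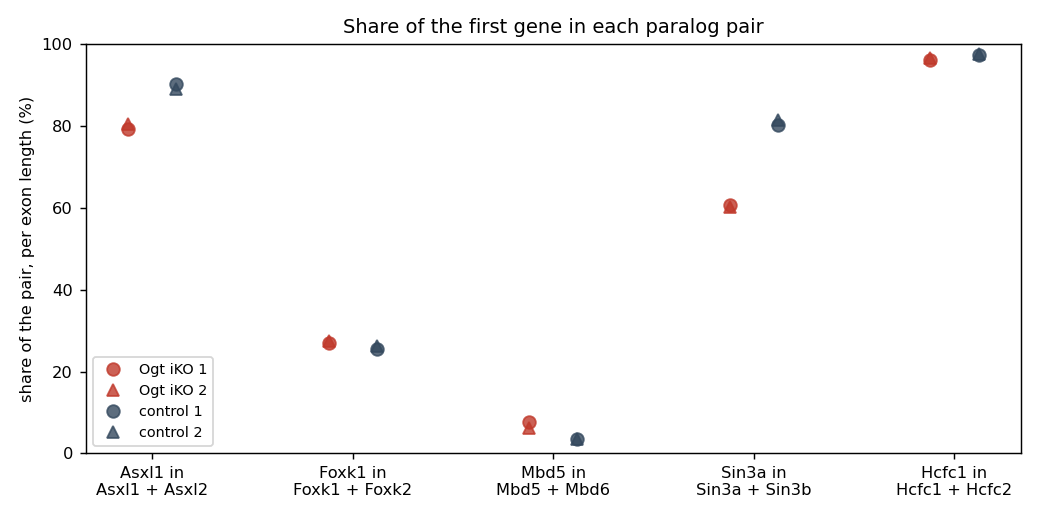
Share of the first-named gene in each of 5 paralog pairs, in percent of the pair's summed level per kb of exon, with 1 point per library (red for Ogt iKO, dark blue for control). The treated libraries lie about 20 percentage points below the controls for Sin3a and about 10 points below them for Asxl1, while the Foxk1 share moved by 1.25 points.

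Foxk1 and Foxk2 encode forkhead transcription factors that bind BAP1 and SIN3A and guide them to DNA. Foxk1, on chromosome 5 from 142401497 to 142462015, had 51.5 CPM in each Ogt iKO library and 68.8 and 70.1 CPM in control. Foxk2, on chromosome 11 from 121259987 to 121309900, had 97.1 and 94.1 CPM against 139 and 136 CPM. Neither gene's groups overlapped, and both genes fell, Foxk1 to 74.1% of control (log2 change -0.43 with SE 0.0710, edgeR adjusted p 0.000786) and Foxk2 to 69.5% (log2 change -0.52 with SE 0.0582, edgeR adjusted p 8.8e-05). The Foxk1 share of the pair per kb of exon was 26.9% and 27.5% in Ogt iKO and 25.6% and 26.3% in control. These groups did not overlap, and their means, 27.2% ± 0.455 and 25.9% ± 0.556 (SD, n = 2), were 1.25 percentage points apart. With library totals the fold change of Foxk1 shrank to -0.26 and stayed past the threshold.

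Kdm1b encodes LSD2, a histone demethylase that has been found with the BAP1 complex and is needed in oocytes to set maternal imprints. Its locus spans 47043373 to 47085279 on chromosome 13. Its level was 30.8 and 29.3 CPM in Ogt iKO and 30.0 and 28.8 CPM in control, with overlapping groups. The log2 change of Kdm1b was 0.03 with SE 0.0845 (edgeR adjusted p 0.755), with an interval from 89.5% to 117% of control. An antisense gene covers 9.19% of its exon length, and whether counting used strand is not given in the sources used here, so that stretch of its count is uncertain.

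Mbd5 and Mbd6 encode proteins with a methyl-CpG-binding-like domain that attach to the ASXL subunits of PR-DUB. Mbd5, on chromosome 2 from 48949499 to 49319688, is the least abundant member, and its counts were 467 and 339 in the Ogt iKO libraries and 169 and 164 in the controls. In CPM these were 27.3 and 21.9 against 10.9 and 10.7, so the treated libraries stood well above controls that hardly differed. Mbd5 rose to 228% of control (log2 change 1.19 with SE 0.140, edgeR adjusted p 0.000121), the largest change of the 10 in that direction. Of all genes tested, 12.4% rose by as much or more. The higher treated library is the one with the most fibroblast marker counts, and without it the log2 fold change of Mbd5 was 1.02.

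Mbd6, on chromosome 10 from 127281956 to 127290869, had 75.9 and 74.3 CPM in Ogt iKO and 65.7 and 67.7 CPM in control. Its groups did not overlap, but it missed the threshold, at a log2 change of 0.17 with SE 0.0682 (edgeR adjusted p 0.0533). It passed with library totals (0.34, adjusted p 0.00260), upper quartile factors (0.21, 0.0232), an offset for GC content (0.20, 0.0329) and a filter at 1 CPM (0.18, 0.0439). Mbd5 made up 7.55% and 6.26% of the pair per kb of exon in Ogt iKO and 3.63% and 3.46% in control. The share rose by 3.36 points, or by 10.7 points on raw counts. So Mbd6 supplied most of the pair's mRNA in every library.

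Sin3a had the largest fall of the 10. It lies on chromosome 9 from 57071991 to 57128368 with counts of 2721 and 2462 in the treated libraries and of 5122 and 5149 in the controls. In CPM it stood at 159 in each Ogt iKO library and at 331 and 336 in the controls. It fell to 47.7% of control (log2 change -1.07 with SE 0.0542, edgeR adjusted p 2.1e-06), with an interval from 43.8% to 52.0%. Of all genes tested, 5.47% fell by as much or more. Sin3b, which encodes the other SIN3 scaffold, moved the opposite way, from 108 ± 4.96 to 142 ± 1.55 CPM (SD, n = 2; log2 change 0.39 with SE 0.0606, edgeR adjusted p 0.000599). Per kb of exon, Sin3a made up 60.7% and 60.3% of the pair in Ogt iKO and 80.1% and 81.4% in control. The mean share dropped by 20.3 percentage points, which was the widest of the 5 pairs and far exceeded the SDs of 0.308 and 0.866. The sum of the pair, per kb of exon and with TMM scaling, fell to 63.7% of control. With library totals the log2 fold changes were -0.90 for Sin3a and 0.56 for Sin3b. Whether the rise of Sin3b is linked to the fall of Sin3a was not tested.

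The order of the members by level per kb of exon changed with the falls of Sin3a and Asxl1. In control it ran Hcfc1 (76.6 RPKM), Sin3a (61.9), Asxl1 (44.8), Bap1 (37.0), Foxk2 (26.1), Mbd6 (15.0), Foxk1 (9.16), Kdm1b (5.35), Asxl2 (5.21) and Mbd5 (0.550). Among neighbours in that order, only Kdm1b and Asxl2 overlapped between their libraries. In Ogt iKO Hcfc1 still led with 73.4 RPKM, Bap1 came next with 34.7, and Sin3a and Asxl1 followed with 29.5 and 26.2. Foxk2 (18.2) and Mbd6 (16.9) drew close, Asxl2 (6.62) passed Kdm1b (5.47) to lie just under Foxk1 (6.79), and Mbd5 stayed last at 1.25. No neighbours overlapped there, although Foxk1 and Asxl2 were separated by under 0.1 RPKM at their closest. Hcfc1 ranked above 95.6% of tested genes in control and Mbd5 above 16.7%. All exons of a gene are summed in its length, so Mbd5 (19632 bases) and Asxl2 would stand higher if only short transcripts were used, which was not tested.

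**Figure D3:**
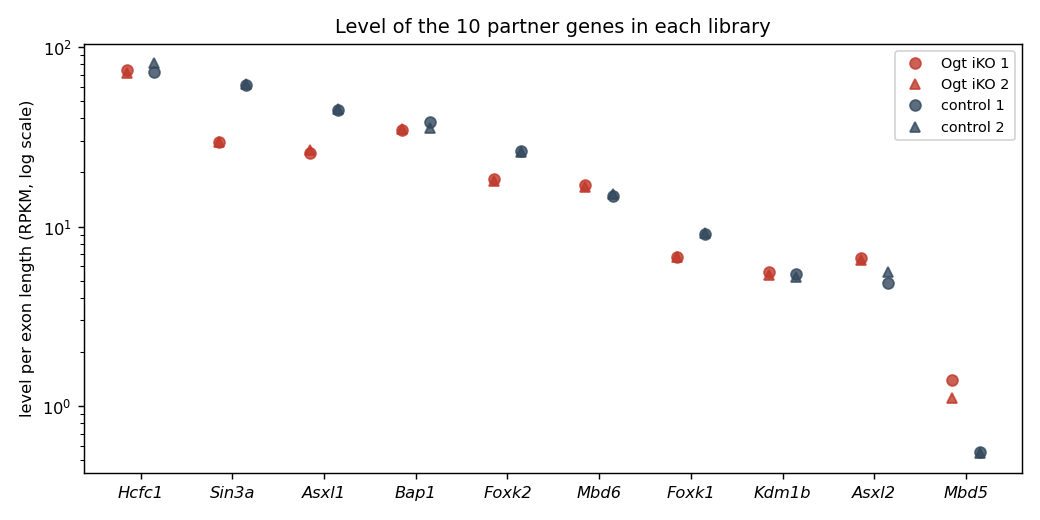
Level of each member per kb of exon (RPKM, log scale) in each of the 4 libraries, ordered by the control mean. Ogt iKO libraries (red) lie clearly under the controls (dark blue) for Sin3a and Asxl1, above them for Mbd5, and among them for Hcfc1 and Kdm1b.

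The genes around the members were examined with 7 lists, which hold 74 genes other than the members, of which 73 were tested. Of these 19 were higher and 34 lower, with a median log2 fold change of -0.16, against 4827 higher and 4651 lower of all 14525 genes and a median of 0.02. Library totals gave 25 higher and 20 lower. The lists were not compared with other genes by a test.

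Of the 20 genes of the SIN3 complex list 12 were lower and 5 higher, beside 32.0% lower and 33.2% higher of all genes. Its median log2 fold change was -0.27, or -0.10 with library totals, where the median of all genes was 0.02 and 0.19. The deacetylases Hdac1 (-0.54) and Hdac2 (-0.57) and the subunit Sap130 (-0.61) fell, to between 65.6% and 68.8% of control. Kdm5a, a histone H3K4 demethylase, rose by 0.58 on the log2 scale, and Sin3b was another of the 5 higher genes. Hdac1, for example, had 76.2 and 79.8 CPM in Ogt iKO and 115 and 111 CPM in control, with no overlap.

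Among the SET1/MLL complexes, the H3K4 methyltransferase assemblies that HCF-1 joins, 6 of 11 genes were lower and 1 higher, beside 32.0% and 33.2% of all genes. The median log2 fold change of these genes was -0.18, or -0.02 with library totals. The shared or SET1-specific subunits Wdr82 and Rbbp5 fell by 0.53 and 0.51 on the log2 scale, and Men1, which encodes the MLL partner menin, rose by 0.32. The enzyme gene Setd1a was called at -0.22 (adjusted p 0.0104, edgeR), but not with library totals (-0.05, adjusted p 0.492) or without control replicate 2 (adjusted p 0.0675). In the NSL complex, a histone acetyltransferase assembly in which both OGT and HCF-1 are found, 3 of 7 genes were lower and 2 higher. These 5 calls of 7 stand beside 65.3% of all genes called, and the median of these genes was 0.02. That median was 0.19 with library totals and -0.11 with the offset for exon length. Mcrs1 fell to 57.3% of control (log2 fold change -0.80), and Phf20l1 rose to 157%. Kansl2 and the acetyltransferase gene Kat8 were called at 79.6% and 80.0% of control. Both calls were lost with DESeq2 (adjusted p 0.0841 and 0.0537), with library totals (0.179 and 0.143) and without control replicate 1 (0.114 and 0.0658).

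Of the 14 regulators known to bind HCF-1, 13 were tested, 3 were higher and 4 lower, beside 33.2% and 32.0% of all genes. Their median was -0.04, or 0.13 with library totals and -0.10 with the offset for exon length. Creb3, a membrane-held transcription factor that binds HCF-1 once released, rose most, from 14.0 and 14.4 CPM in control to 39.2 and 43.6 CPM in Ogt iKO (log2 change 1.54 with SE 0.0973, edgeR adjusted p 5.4e-06). E2f4 (-0.80), Myc (-0.70) and Zfp143 (-0.57), the mouse gene of ZNF143, fell. Thap11 was not called, at 0.08 (adjusted p 0.381, edgeR). It is named because its site is examined next. Egr2, the untested gene, had 3 to 5 counts per library.

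Relatives of the members changed in both directions. The shares of all genes to set beside the counts of these lists are 33.2% higher and 32.0% lower. The 9 paralogs had 5 higher and 2 lower, with a median of 0.39 (0.56 with library totals), and the methyl-CpG-binding genes Mbd2 and Mbd1 rose by 0.69 and 0.56. Of the 8 genes that encode other H2A deubiquitinases, UCH-type proteases like BAP1 and the opposing H2A ubiquitin ligases, 4 were lower and 1 higher, with a median of -0.22 (-0.05 with library totals). The ligase gene Ring1 fell by 0.80 on the log2 scale, and Uchl3 and Uchl1 fell by 0.40 and 0.37, or by 0.23 and 0.20 with library totals. Rnf2, the other ligase gene, was called at -0.24, but not with library totals (-0.07, adjusted p 0.291) or without control replicate 1 (adjusted p 0.0551). Ring1 had 9.12 and 8.19 CPM in Ogt iKO and 14.9 and 15.2 CPM in control, with no overlap. Of 6 other OGT partners, 3 were higher and 3 lower, with a median of -0.12 (0.05 with library totals and -0.25 with the offset for exon length). Tet3 rose by 1.33 on the log2 scale. Trak1, which encodes a mitochondrial transport adaptor, was called at -0.39 but not with library totals (-0.22, adjusted p 0.0547). Tet2 and Tet1 fell to 35.5% and 53.5% of control. The TET enzymes oxidise methylated cytosine and bring OGT to chromatin.

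**Figure D4:**
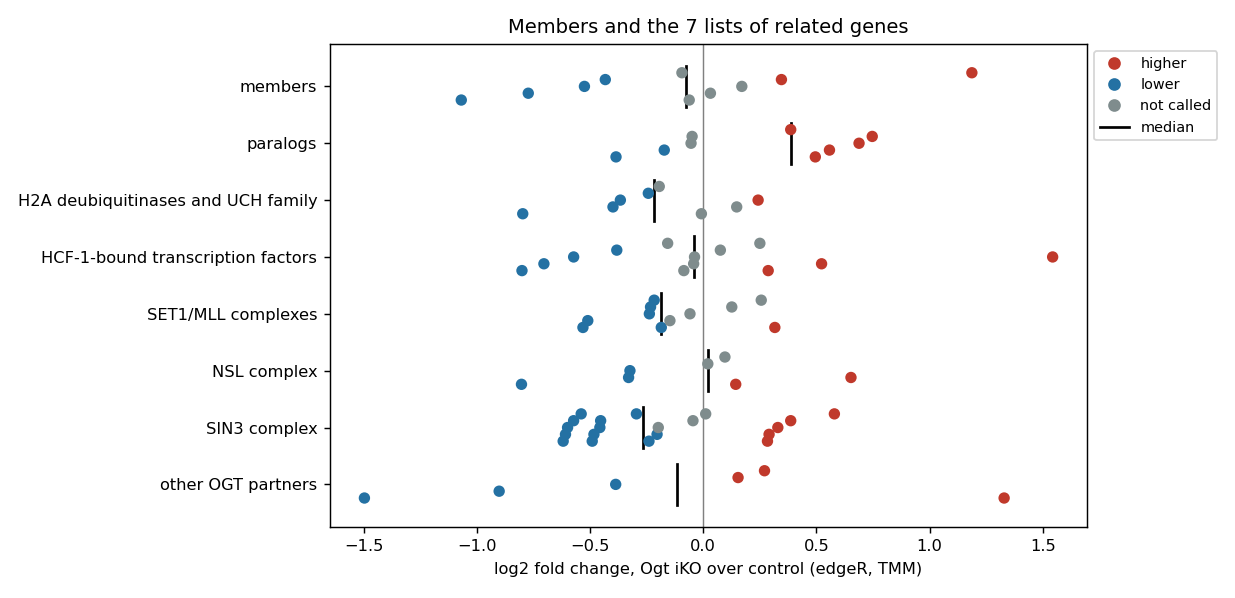
Log2 fold change of every tested gene of the members' list and the 7 related lists, coloured by the call, with a black bar for each list's median. Most SIN3 complex genes lie left of 0, the paralogs lie mostly right of it, and the members reach from -1.07 to 1.19.

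The RefSeq promoter table, with 32851 windows from 250 bases before to 50 after a start, held 12 windows of 9 members, Foxk1 having none. In the bases before the start, the members' windows had a median of 19 CpG dinucleotides and an observed to expected CpG ratio of 0.818, against 6 and 0.374 over all windows. They ranged from 4 CpGs at 1 of the 2 starts of Mbd5 to 48 at Foxk2. All windows include those of genes that were not tested, whereas every member was tested. Over the whole window, the ratio passed 0.6 in 11 of the members' 12 windows and in 35.8% of all windows. Of the 11446 tested genes with a window, 8390 had such a CpG-rich one, so the members are not unusual among tested genes in this. Of the 12 windows, 1 held the THAP11 and ZNF143 core ACTACAANT on either strand, that of Asxl1, where it begins 75 bases before the start in the run printed above. This core occurs in 1.49% of all windows. The GABPA motif (CCGGAAGT, 3.89% of windows) was found only in Asxl2 and the YY1 motif (AAGATGGC, 2.75%) only in Hcfc1. A CRE (TGACGTCA, 1.79%) and a forkhead motif (GTAAACA, 3.65%) were found in none of the members' windows.

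Since HCF-1 is carried to DNA by THAP11 and ZNF143, the tested genes whose promoter window holds their core were described as a group. Of 338 such genes, 166 (49.1%) were lower and 71 (21.01%) higher, with a median log2 fold change of -0.25. Among the 11446 tested genes with any window, 32.7% were lower and 32.7% higher, with a median of 0.01. Genes with the other motifs gave lower shares of 40.5% for YY1 (556 genes), 37.3% for CRE (394), 36.7% for GABPA (960) and 32.2% for the forkhead motif (351). Their higher shares were 25.9% for YY1, 27.7% for CRE, 23.02% for GABPA and 33.9% for the forkhead motif. Among the genes with CpG-rich windows, a group chosen after the data were seen (observed to expected ratio above 0.6, 8390 genes), 35.7% were lower and 31.2% higher. Of the 270 genes with both the core and such a window, 50.0% were lower and 20.4% higher. Asxl1 is one of the lower genes with the core. Lmnb2, which encodes a nuclear lamin, fell most of them, from 130 to 20.2 CPM (log2 fold change -2.69, adjusted p 2.6e-07, edgeR), and is named after its value was seen. A match is a run of letters and not a measured site, and the groups were not compared by a test.

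**Figure D5:**
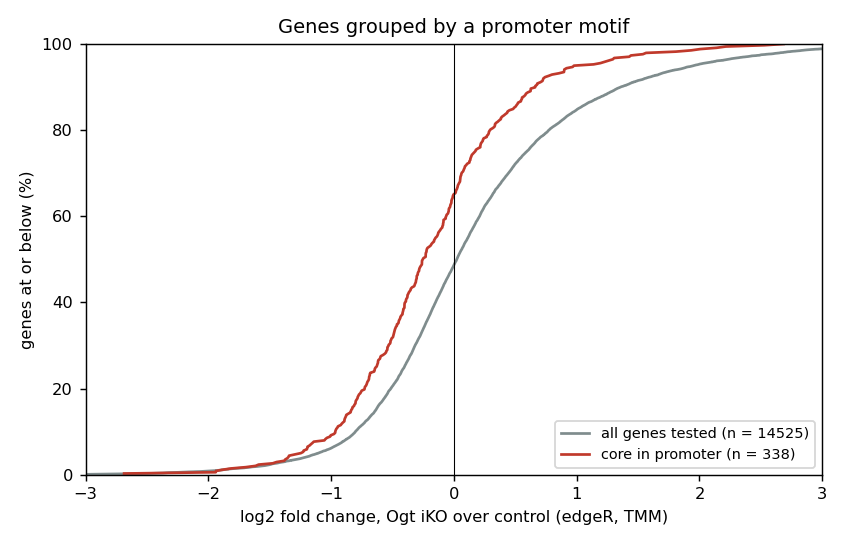
Cumulative share of genes (y axis, percent) at or below each log2 fold change (x axis) for all 14525 tested genes (grey) and for the 338 genes whose promoter window holds the THAP11 and ZNF143 core (red). The red curve lies to the left of the grey over most of the range, with medians of -0.25 and 0.02.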

How the data were processed

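Counts per gene were deposited by the authors as whole numbers, 1 table per library, with no normalization. The submitters' processing notes name STAR, Picard and the build mm10. The annotation, the counted strand and the handling of reads that map to several loci are not given in the sources used here. Libraries were made with a stranded mRNA kit, per the labels' protocols.

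R 4.3.3 and edgeR 4.0.16 were used to test the deposited counts of all 4 libraries by quasi-likelihood, after filterByExpr and with TMM scaling and no covariate, with Benjamini-Hochberg adjustment over 14525 genes. CPM and RPKM use TMM-scaled totals, marker sums raw totals. Intervals are 95%, from the test statistic. The script was checked on simulated counts. Totals of 14668489 to 16504204 mean that 3 counts, the limit a count of 0 allows, are 0.182 to 0.205 CPM. Positions and promoters came from RefSeq (GRCm38.p6, 25148 symbols matched), and exon lengths from GENCODE M21 (24386 matched), on the assembly that mm10 names.

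Members and lists were chosen with earlier results of these data known. Named are the members, Ogt, the paralogs in the 5 shares, and per list the 4 genes with the smallest adjusted p plus called genes with a log2 change of at least 1. No protein sequences were used here. Alternatives were RLE, upper quartile and library-total scaling, DESeq2 1.42.0, other filters, a robust spread, a replicate block, other thresholds, offsets for exon length and GC content (loess, span 0.4) and leaving out each library.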

Additional observations from a re-analysis of the deposited data

How the results depend on the processing

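Sin3a, Asxl1, Foxk1, Foxk2 and Mbd5 kept their direction and their call under all 16 alternatives, with log2 fold changes from -1.09 to -0.90 for Sin3a, -0.86 to -0.60 for Asxl1 and 0.94 to 1.36 for Mbd5. The higher members numbered 1 in place of 2 in glmTreat's test against a fold of 1.2 and with the offset for exon length, which both end the call of Asxl2. Values near 0 changed sign: with library totals Hcfc1 was 0.11 and Bap1 0.0755, and with the offset for GC content Kdm1b was -0.0009. Leaving out 1 library in turn gave -0.15 to 0.0139 for Hcfc1 and -0.0093 to 0.056 for Kdm1b, where the lone library of a group is assumed to vary like the other group. The genes of the 7 lists were 20 lower with library totals, where all genes gave 3282 lower in place of 4651. They were 12 higher at an adjusted p under 0.01, and 9 higher and 19 lower in glmTreat. Both of these settings are stricter for every gene, so the counts do not set the lists apart from all genes. With the THAP11 and ZNF143 core on the gene's own strand only, 39 of 221 genes were higher and 111 lower. Among tested genes with any window, 32.7% were called in each direction. On raw counts in place of levels per kb, the Mbd5 share rose by 10.7 points in place of 3.36, and the change of the Asxl1 share was -15.2 in place of -9.75. Depth is lowest for Mbd5 among the members, at 164 to 467 counts per library. Among list genes named by the rule, glmTreat also ended the calls of Hcfc2, Uchl1, Rnf2, Setd1a, Men1, Kat8, Kansl2 and Trak1. Asxl3, named after its value was seen, was not followed through the alternatives. Same-numbered libraries share only a number in the labels, and their deviations correlated by 0.086 across genes. With a replicate block 4922 genes were higher and 4719 lower, and the members again gave 2 and 4.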
